A study of Mus musculus with 41 samples.

Results

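The genes described here are 10 imprinted genes of the growth-regulating network: H19, Igf2, Dlk1, Meg3, Peg3, Mest, Plagl1, Grb10, Cdkn1c and Ndn. They were taken by symbol from a bone RNA-seq count table of 43346 genes, and all 10 were found and passed the filter on low counts that left 19292 genes for testing. The libraries came from tibia diaphyses, the cortical shafts of the shin bone, which were centrifuged to remove marrow. All 41 mice were female and carried the INK-ATTAC transgene on a C57BL/6 background. In these mice a fragment of the p16Ink4a (Cdkn2a) promoter drives a caspase that the drug AP20187 (AP) activates, so that cells using this promoter die when AP is given. The young group (n = 12) was labelled as vehicle-treated and 6 to 12 months old, whereas the methods name only the lower end of that range, so the exact age of the young mice is uncertain. The old vehicle group (n = 13) and the old AP group (n = 16) were labelled as 20 months old at the start of treatment, and AP was given at 10 mg/kg in 2 doses a week for 4 months. The old mice were therefore about 24 months old at the end. Only old mice received AP, and both old groups were compared with the same young mice.

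An imprinted gene is read mainly from the chromosome copy inherited from 1 parent. Igf2, Dlk1, Peg3, Mest, Plagl1 and Ndn are read from the paternal copy in most tissues, and H19, Meg3, Cdkn1c and, outside the brain, Grb10 from the maternal copy. Many of them set fetal and early postnatal growth, are expressed together in growing tissues and are turned down as body growth slows. Plagl1 encodes a zinc finger transcription factor that acts on other genes of this network. In bone, Igf2 is a growth factor stored in the matrix, and Dlk1 is a membrane protein that holds back the maturation of osteoblasts and adipocytes. The counts did not separate the parental copies, so the values below are the sum of both.

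Sequences of these loci are shown from the RefSeq tables for GRCm38.p6, the build of the count table's coordinates. H19 (chr7:142575529-142578143) is a long noncoding RNA and contains a microRNA, whose 2 mature forms are shown with the seed, bases 2 to 8, in capitals.
miR-675-5p: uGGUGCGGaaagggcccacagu
miR-675-3p: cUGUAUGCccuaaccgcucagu
They lie on the minus strand at chr7:142577112-142577133 and chr7:142577078-142577099. The next 3 sequences are the 250 bases before an annotated start of Plagl1, Dlk1 and Meg3, the member with the smallest adjusted p and both members of the domain described below. Each CpG, the dinucleotide methylated at imprinted promoters, is in capitals.
Plagl1, chr10:13090582-13090831, plus strand: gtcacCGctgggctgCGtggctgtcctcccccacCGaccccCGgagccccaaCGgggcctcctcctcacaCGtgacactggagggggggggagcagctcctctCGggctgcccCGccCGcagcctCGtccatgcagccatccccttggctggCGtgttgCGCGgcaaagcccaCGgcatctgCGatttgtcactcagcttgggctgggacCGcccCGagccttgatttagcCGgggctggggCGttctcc
Dlk1, chr12:109452573-109452822, plus strand: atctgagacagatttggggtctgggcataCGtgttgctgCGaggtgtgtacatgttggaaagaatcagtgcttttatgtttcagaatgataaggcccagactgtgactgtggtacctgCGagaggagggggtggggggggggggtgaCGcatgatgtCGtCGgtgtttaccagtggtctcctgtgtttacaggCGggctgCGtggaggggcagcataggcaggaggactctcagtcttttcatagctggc
Meg3, chr12:109540746-109540995, plus strand: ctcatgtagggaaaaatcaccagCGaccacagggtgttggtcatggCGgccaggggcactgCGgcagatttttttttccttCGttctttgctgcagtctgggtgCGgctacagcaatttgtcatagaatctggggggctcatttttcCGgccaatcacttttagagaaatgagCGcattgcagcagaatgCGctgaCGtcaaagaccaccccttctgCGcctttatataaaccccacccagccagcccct
The Plagl1 window held 19 CpG, more than 80.3% of the 32851 windows of that length in the table (median 6). The Dlk1 window held 8. The Meg3 window shown held 10, and a further Meg3 window in the table held 0. The table had 15 such windows for 8 of the 10 genes, and none for H19 and Cdkn1c. Plagl1 is known to bind the palindrome GGGGCCCC, which reads the same on both strands. These letters were found in 1 of the 15 windows, against 0.889% of all windows. That window belongs to Peg3 and is shown with the palindrome in capitals.
Peg3, chr7:6730420-6730669, minus strand: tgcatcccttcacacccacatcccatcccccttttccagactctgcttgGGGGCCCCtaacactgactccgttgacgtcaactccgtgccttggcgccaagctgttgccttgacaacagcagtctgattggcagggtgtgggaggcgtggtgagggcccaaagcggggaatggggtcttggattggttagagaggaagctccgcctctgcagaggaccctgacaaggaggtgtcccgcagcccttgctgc
A match describes the letters in this stretch only.

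Total counts ranged from 37028959 to 75942717 per mouse, with a median of 47774880, so that 1 count was a small part of 1 CPM, the count scaled for library size. Cdkn2a, whose promoter drives the transgene, had 0.596 ± 0.307 CPM in the young group (mean ± SD, n = 12), 2.78 ± 2.02 in the old vehicle group (n = 13) and 1.75 ± 1.7 in the old AP group (n = 16). It rose in old vehicle mice (log2 fold change 2.22, adjusted p = 0.00033), and old AP differed from old vehicle by -0.67 (adjusted p = 0.265). Each library had a median Pearson r of 0.948 to 0.984 with its group, and the lowest were old AP mice 19 (0.948) and 18 (0.96) and old vehicle mouse 16 (0.962). Mice 18 and 19 had summed CPM of 293 and 299.5 over 8 osteocyte markers, against 984 to 2250 in old vehicle and 1070 to 1670 in young mice. Genes of osteocytes, the defining cells of cortical bone, were detected, and none of the 8 was at 0. The libraries also held skeletal muscle RNA, with 12 muscle markers summing to 7740 to 116000 CPM.

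The 10 genes covered a wide range of levels. Levels per length of transcript are given in young mice as RPKM, which is CPM per kilobase (mean ± SD, n = 12). H19 stood alone at 251 ± 205. Grb10 (11.9 ± 1.54), Igf2 (7.55 ± 1.67) and Cdkn1c (6.58 ± 1.46) followed, then Plagl1 (3.87 ± 0.686), Peg3 (3.4 ± 1.18), Ndn (2.88 ± 0.882), Meg3 (1.63 ± 0.579) and Mest (1.55 ± 0.424). Dlk1 was lowest at 0.0499 ± 0.0306. The ranges of H19 and Dlk1 did not touch those of their neighbours in this order, whereas each of the other neighbouring pairs overlapped. In both old groups Plagl1 came after Peg3, with 1.88 ± 0.63 in old vehicle mice and 1.84 ± 0.533 in old AP mice.

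**Figure D1:**
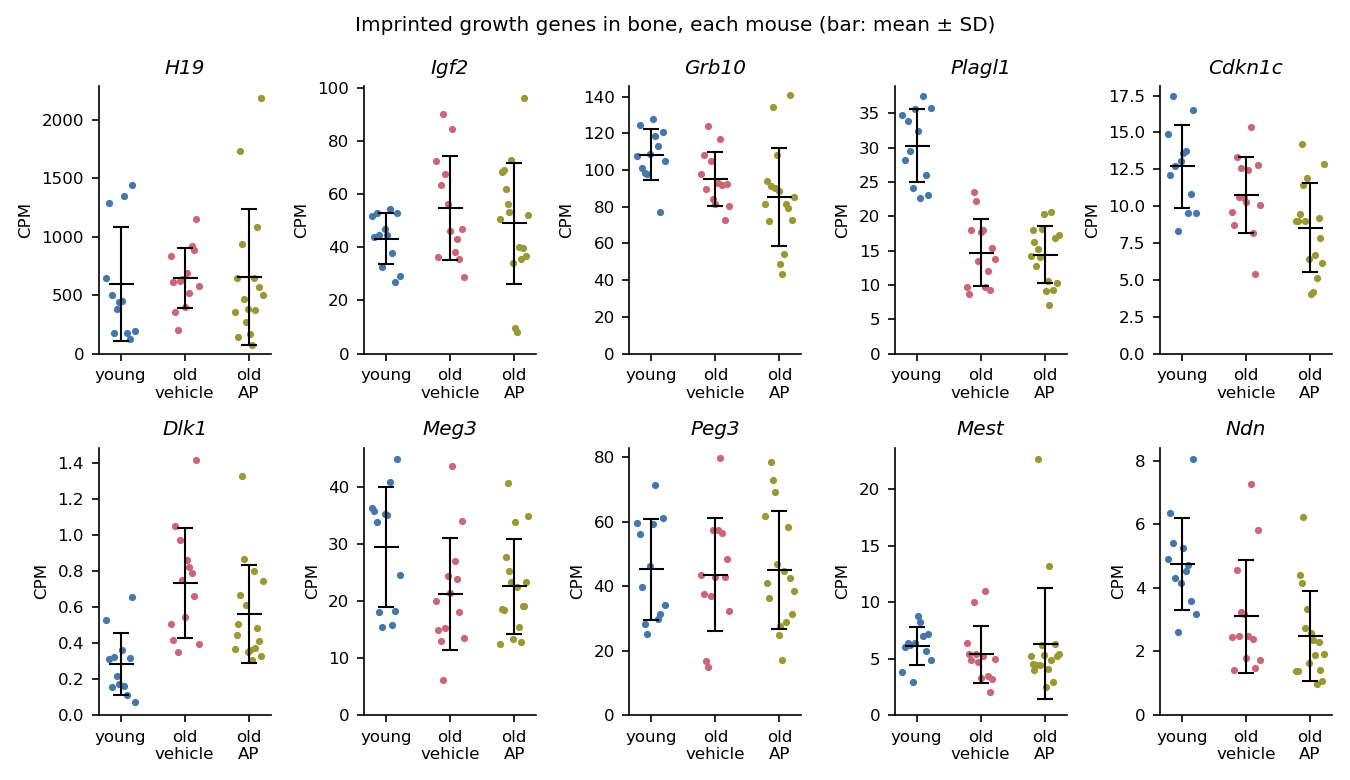
CPM of each imprinted gene (y axis) in each mouse, by group (x axis). Points are mice and bars are mean ± SD. The 16 old AP mice all lie below the lowest young mouse for Plagl1 (22.6 CPM), and the 13 old vehicle mice all lie above the young median for Dlk1 (0.264 CPM).

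The first question was how these genes differed between young and old bone. A gene was called when its adjusted p (edgeR's quasi-likelihood test, Benjamini-Hochberg adjustment over 19292 genes) was under 0.05 and its log2 fold change was past 0.5 in size. In old vehicle against young mice, Dlk1 was the 1 member called higher, where 4.3% of all genes were, and Plagl1 was the 1 member called lower, where 4.76% were. In old AP against young mice, Dlk1 was again the 1 member called higher (3.73% of all genes), and Plagl1, Ndn and Cdkn1c were the 3 called lower (4.85% of all genes). The median log2 fold change over the 10 genes was -0.19 in old vehicle and -0.18 in old AP mice, against 0.01 and 0.02 over all genes tested. A young mouse had a median of 4 of the 10 genes below the young median level (0 to 10). The median was 7 in old vehicle mice (3 to 8) and 7 in old AP mice (2 to 9). The same count was not made over all genes, so whether these medians are unusual was not tested. In all, 6 of the 10 genes were called in neither comparison.

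**Figure D2:**
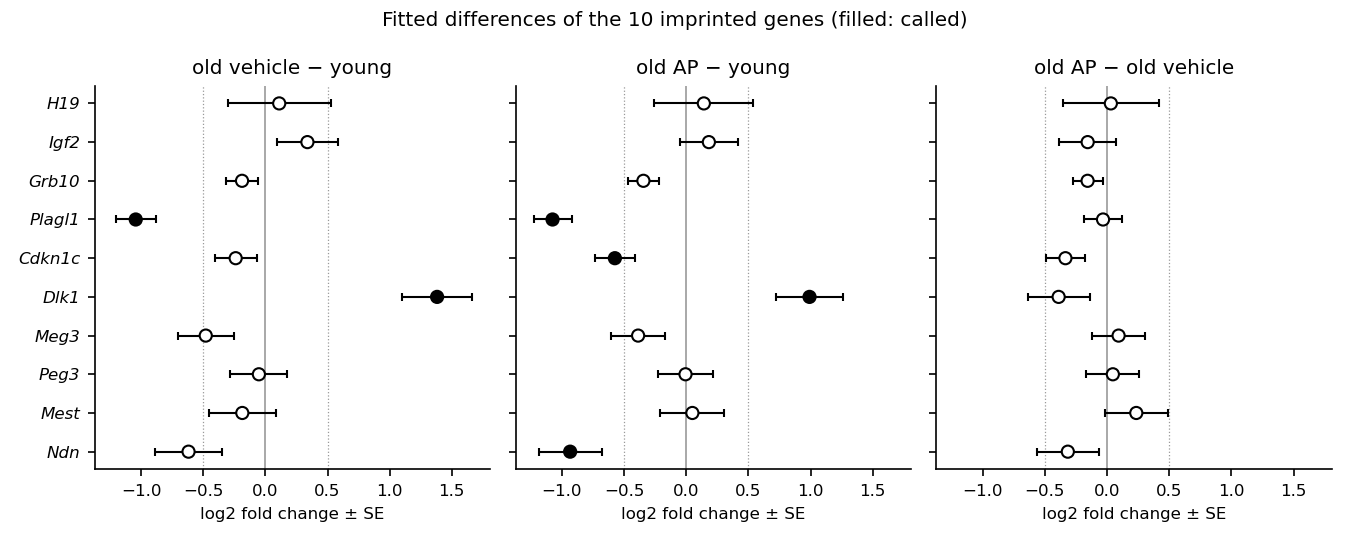
Log2 fold change ± SE from the edgeR model (x axis) for the 10 imprinted genes (y axis) in the 3 comparisons. Filled points are called, and dotted lines mark 0.5 in both directions. Plagl1 and Dlk1 are filled in both comparisons with young mice, at -1.04 and 1.38 in old vehicle mice, and no point is filled in old AP against old vehicle.

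Plagl1 (chr10:13060504-13131694), the transcription factor of the network, had the smallest adjusted p of the 10 genes in both comparisons. In young mice it ranged from 22.6 to 37.5 CPM with a median of 31. In old vehicle mice it ranged from 8.64 to 23.5 CPM with a median of 13.7. In old AP mice it ranged from 7.06 to 20.6 CPM with a median of 14.7. Of the 13 old vehicle mice, 12 were below the lowest young mouse, and in the old AP group all 16 were. The mean was 0.485 of the young mean in old vehicle mice (log2 fold change -1.04, SE 0.16, adjusted p = 2.01e-05) and 0.475 in old AP mice (-1.08, SE 0.15, adjusted p = 4.83e-06). Both calls held in every alternative fit and without any single mouse.

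Transcripts of bone-forming cells moved in the same samples. Of 9 osteoblast markers, 3 fell in old vehicle mice and 6 in old AP mice, none was at 0, and their summed CPM ranged over 35500 to 89500 in young, 15800 to 79700 in old vehicle and 6870 to 70000 in old AP mice. Bglap, which encodes osteocalcin, fell by 1.71 on the log2 scale in old vehicle mice (adjusted p = 0.00014) and is named here after its values were seen. Within the old AP group, Plagl1 followed the osteoblast score, the mean of the standardized marker levels (r = 0.908, rho = 0.894, n = 16, permutation p = 1e-05, adjusted p = 0.0009 for r and 0.006 for rho, and r = 0.933 without the 2 mice farthest from the median score). With this score in the model, Plagl1 was still called, at -0.74 in old vehicle mice (adjusted p = 2.04e-06) and -0.59 in old AP mice (adjusted p = 0.00027). With the score of 6 marrow stroma markers, of which 3 and 2 fell, it was -0.65 and -0.64 (adjusted p = 0.00341 and 0.00254). In bulk bone, fewer cells of a type and less RNA per cell cannot be told apart.

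**Figure D3:**
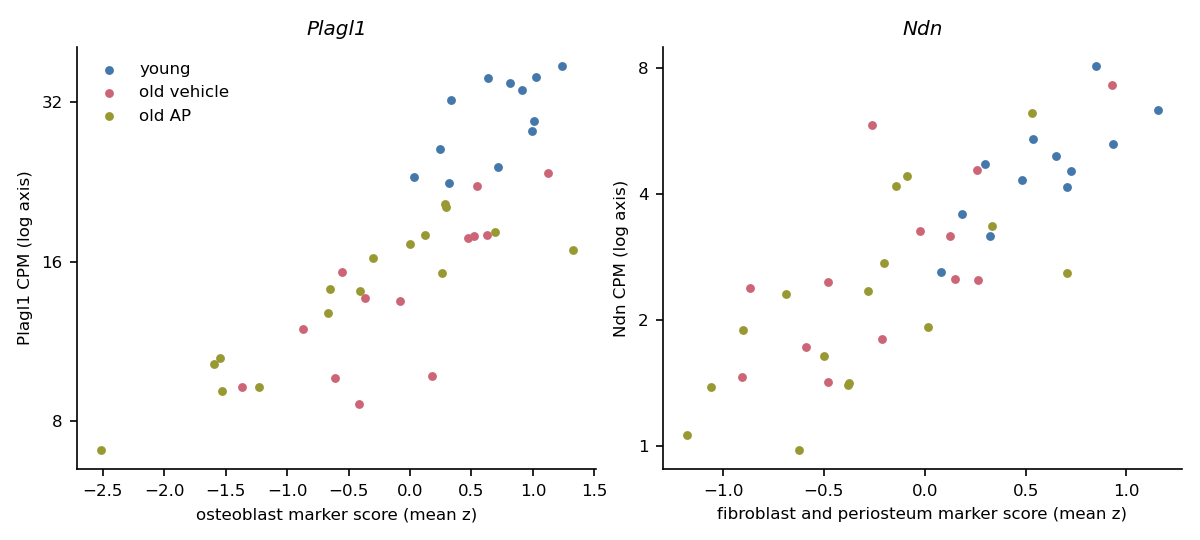
Left, Plagl1 CPM (log axis) against the osteoblast marker score of each mouse. Right, Ndn CPM (log axis) against the fibroblast and periosteum marker score. Points are mice coloured by group, and scores are means of z values over the markers. Most old mice lie below the young mice for Plagl1, also at like osteoblast scores, and Ndn tends to be higher at higher fibroblast and periosteum scores. Both scores were lower on average in the old groups, so score and age cannot be told apart.

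Dlk1 (chr12:109452823-109463336) was the 1 member called higher in either old group. It ranged from 0.0739 to 0.656 CPM in young mice with a median of 0.264, from 0.352 to 1.42 in old vehicle mice with a median of 0.753, and from 0.304 to 1.33 in old AP mice with a median of 0.465. All 13 old vehicle and all 16 old AP mice were above the young median, and 8 and 5 of them were above the highest young mouse. The mean was 2.61 times the young mean in old vehicle mice (log2 fold change 1.38, SE 0.28, adjusted p = 0.00055) and 1.99 times in old AP mice (0.99, SE 0.27, adjusted p = 0.00963). These levels rested on 5 to 32 reads per young mouse, 18 to 47 per old vehicle mouse and 17 to 63 per old AP mouse. The call held in every alternative fit, also without mice 16, 18 and 19.

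Dlk1 shares an imprinted domain on chromosome 12 with Meg3 (chr12:109541001-109571726), a long noncoding RNA of the maternal copy. Meg3 ranged from 15.4 to 44.9 CPM in young mice with a median of 34.4, from 6.13 to 43.5 in old vehicle mice with a median of 19.9, and from 12.4 to 40.6 in old AP mice with a median of 20.8. It was below the young median in 12 of 13 old vehicle and 14 of 16 old AP mice, but the ranges overlapped and neither difference passed the test (log2 fold change -0.48, SE 0.23, adjusted p = 0.135 and -0.39, SE 0.21, adjusted p = 0.208). Without mouse 15, the old vehicle mouse with the most Meg3, the first difference was -0.61 (adjusted p = 0.0449), and with the muscle marker score in the model it was -0.59 (adjusted p = 0.0339), both past the thresholds, whereas with the fibroblast score it was 0.0035 (adjusted p = 0.995). Rian, a noncoding RNA of the same maternal copy, fell by 1.02 on the log2 scale in old vehicle mice (adjusted p = 0.00228) and by 0.85 in old AP mice (adjusted p = 0.00808). Mirg, another noncoding RNA there, was at -0.48 (adjusted p = 0.163) and -0.45 (adjusted p = 0.164). Dio3, the paternally expressed deiodinase gene at the other end of the domain, was at 1.05 in old vehicle mice (adjusted p = 0.0389) and 0.53 in old AP mice (adjusted p = 0.301). The Dio3 call was lost in 12 of 25 fits that left out 1 mouse. Rtl1, another paternally expressed gene of the domain, did not pass the filter on low counts. Of the 5 genes of the domain described here, Dlk1 and Rian were the 2 called in both old groups, which were compared with the same young mice.

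The log2 ratio of Dlk1 to Meg3 gave 1 value per mouse, which rests on the same counts as the fits above. It ranged from -7.74 to -5.63 in young mice with a median of -6.56, from -5.6 to -3.57 in old vehicle mice with a median of -4.94, and from -6.4 to -4.2 in old AP mice with a median of -5.17. Every old vehicle mouse was above every young mouse, and 13 of 16 old AP mice were. The mean was -6.60 ± 0.783 in young, -4.72 ± 0.58 in old vehicle and -5.26 ± 0.53 in old AP mice. Old vehicle minus young was 1.88 (2-sided permutation test with 100000 resamples, p = 1e-05, the smallest they can give, adjusted over 6 tests p = 6e-05). Old AP minus young was 1.34 (permutation p = 4e-05, adjusted p = 0.00012). Old AP minus old vehicle was -0.54, with 12 of 16 old AP mice below the old vehicle median (permutation p = 0.0142, adjusted p = 0.0285). That last difference rested on a few mice. It was -0.40 without mice 18 and 19 (adjusted p = 0.0914), and leaving out mouse 18, 6, 7 or 8 alone gave -0.47 to -0.44 with adjusted p of up to 0.0652.

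**Figure D4:**
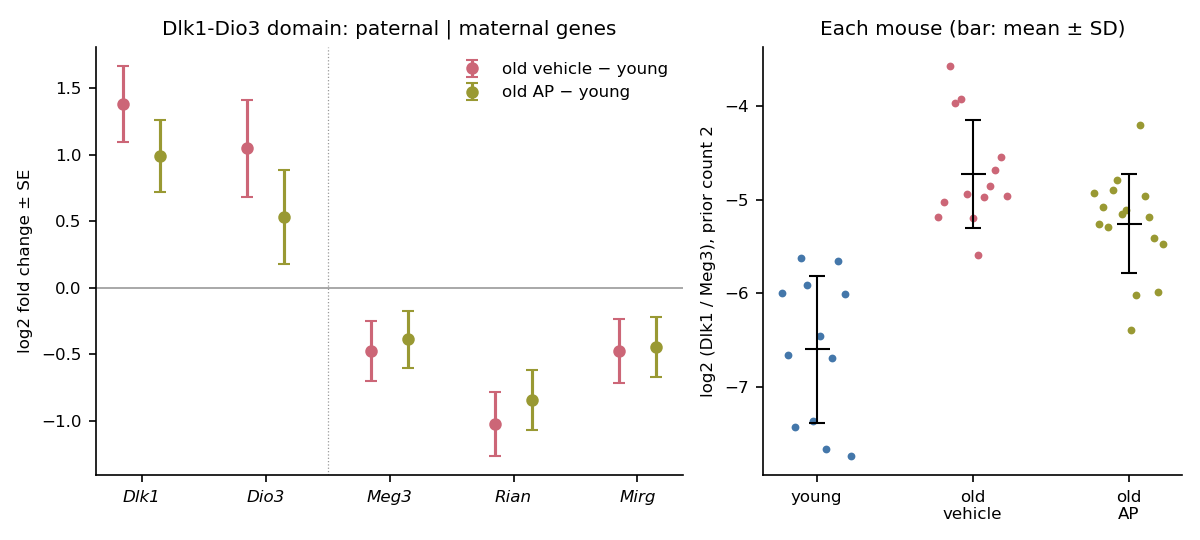
Left, log2 fold change ± SE (y axis) of 5 genes of the Dlk1-Dio3 domain (x axis) in both old groups against young mice, with paternal genes left and maternal RNAs right of the dotted line. Right, log2 ratio of Dlk1 to Meg3 in each mouse (y axis) by group, with mean ± SD. Dlk1 (1.38 and 0.99) and Rian (-1.02 and -0.85) passed the test in both old groups, Dio3 in old vehicle mice alone and Meg3 and Mirg in neither, and the 13 old vehicle mice lie above all 12 young mice, the lowest at -5.6.

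Fibroblast and periosteum markers were lower in the same mice, with 5 of 9 called lower in each old group, none at 0, and summed CPM of 2880 to 5840 in young, 899 to 3970 in old vehicle and 826 to 4030 in old AP mice. With their score in the model, Meg3 was at 0.00 in old vehicle mice (adjusted p = 0.995), Rian at -0.59 (adjusted p = 0.138) and Dlk1 at 1.77 (adjusted p = 0.00016). The score itself differed between young and old mice, so age and cell content cannot be told apart in these fits.

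Ndn (chr7:62348277-62349928) encodes necdin, a protein of resting neurons and other cells that have left the cell cycle. It ranged from 2.6 to 8.06 CPM in young mice with a median of 4.62, from 1.42 to 7.26 in old vehicle mice with a median of 2.49, and from 0.979 to 6.23 in old AP mice with a median of 2.11. In the old AP group 11 of 16 mice were below the lowest young mouse, and the mean was 0.523 of the young mean (log2 fold change -0.93, SE 0.25, adjusted p = 0.00873). In the old vehicle group 8 of 13 mice were below the lowest young mouse, and the difference did not pass the test (-0.62, SE 0.27, adjusted p = 0.0986). Without old vehicle mouse 16, whose Ndn was the highest of its group, it was -0.79 (adjusted p = 0.0295). Ndn followed the fibroblast and periosteum score within the old AP group (r = 0.703, rho = 0.776, n = 16, permutation p = 0.00234, adjusted p = 0.0245 for r and 0.0225 for rho, and r = 0.674 without the 2 farthest mice). With this score in the model Ndn was at -0.09 in old AP mice (adjusted p = 0.872), and with the osteoblast score it was at -0.81 (adjusted p = 0.0943).

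Cdkn1c (chr7:143458350-143461050) encodes p57, an inhibitor of cyclin-dependent kinases that holds cells out of the cell cycle. It ranged from 8.29 to 17.5 CPM in young mice, with a median of 12.9. Old vehicle mice had 5.38 to 15.4 CPM with a median of 10.6, and old AP mice 4.06 to 14.2 CPM with a median of 8.99. The old AP mean was 0.672 of the young mean (log2 fold change -0.57, SE 0.16, adjusted p = 0.0108), with 15 of 16 mice below the young median. The old vehicle difference did not pass the test (-0.24, SE 0.17, adjusted p = 0.343). Mouse 18 had the lowest value, and without mice 18 and 19 the old AP difference was -0.48 (adjusted p = 0.0237), under the fold threshold. The call was also lost with the fibroblast (-0.17, adjusted p = 0.669), osteoblast (-0.35, adjusted p = 0.251) or marrow stroma score (-0.46, adjusted p = 0.0842) in the model.

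Grb10 (chr11:11930508-12038683) encodes an adaptor that dampens signalling from the insulin and IGF1 receptors, and its values varied least among young mice (coefficient of variation 12.9%). It ranged from 77.4 to 128 CPM in young mice, 72.8 to 124 in old vehicle mice and 43.1 to 141 in old AP mice, with medians of 108, 92.4 and 83.5. Its old AP difference passed the test but not the fold threshold (log2 fold change -0.34, SE 0.12, adjusted p = 0.0454), and it was -0.26 without mice 18 and 19 (adjusted p = 0.109). In old vehicle mice it was at -0.19 (SE 0.13, adjusted p = 0.33).

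Igf2 (chr7:142650766-142666816) ranged from 27 to 54.6 CPM in young mice with a median of 44.7, from 29 to 90.1 in old vehicle mice with a median of 46.8, and from 8 to 96.3 in old AP mice with a median of 51.3. Its mean differed by 0.34 (SE 0.24, adjusted p = 0.356) and 0.18 (SE 0.23, adjusted p = 0.628) on the log2 scale, and in each old group 6 mice were above the highest young mouse. The old AP difference was 0.086 without mouse 27 and 0.26 without mouse 19. The spread was wider in the old groups, where the coefficient of variation was 35.8% and 46.5% against 22.2% in young mice. The lowest old AP values were those of mice 18 and 19, at 9.49 and 8 CPM, which add to that spread. The next lowest was 33.96 CPM in mouse 17. The difference in spread was not tested. H19, which lies beside Igf2 and is read from the other parental copy, ranged from 124 to 1440 CPM in young, 202 to 1150 in old vehicle and 72.5 to 2180 in old AP mice, with medians of 445, 616 and 486. Its differences were 0.11 (SE 0.42, adjusted p = 0.885) and 0.14 (SE 0.40, adjusted p = 0.84), and the sign turned negative with the osteoblast, fibroblast or marrow stroma score in the model. The log2 ratio of Igf2 to H19 was -3.36 ± 1.01 in young, -3.52 ± 0.975 in old vehicle and -3.48 ± 1.17 in old AP mice, and none of its 3 differences passed the permutation test (adjusted p = 0.919 for each). The row for the microRNA shown above, Mir675, held 5.8% as many reads as H19 and differed by 0.10 in old vehicle mice (adjusted p = 0.902). RNA-seq reads in that row come from the H19 transcript or its precursor and do not measure the mature forms.

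H19 varied with muscle. Over the 41 mice, with group means removed, its r with the score of 12 muscle markers was 0.868, and the genes most like it were Mir675 (0.996), Myh2, a fast myosin heavy chain (0.968), and Smtnl1 (0.96). The relation passed in young mice (r = 0.882, rho = 0.881, n = 12, permutation p = 0.00024, adjusted p = 0.00675 for r and 0.0164 for rho, r = 0.833 without the 2 farthest mice). It passed in old AP mice (r = 0.889, rho = 0.841, n = 16, permutation p = 1e-05, adjusted p = 0.0009 and 0.00675, r = 0.799 without them). In old vehicle mice r was 0.879 and rho 0.736 (n = 13, permutation adjusted p = 0.00381 and 0.0541), with r = 0.662 without the 2 farthest mice. Peg3, a zinc finger protein gene expressed in muscle stem cells, also followed the muscle score in young mice (r = 0.865, rho = 0.825, n = 12, permutation p = 0.00081, adjusted p = 0.0149 for r and 0.0364 for rho, r = 0.838 without the 2 farthest mice) and in old AP mice (r = 0.828, rho = 0.809, n = 16, permutation p = 3e-05, adjusted p = 0.00169 and 0.0118, r = 0.697 without them). In old vehicle mice its r of 0.747 rested on mice 6 and 7, the 2 farthest, since it was 0.134 without them. It ranged from 25.3 to 71.4 CPM in young, 14.8 to 79.8 in old vehicle and 17.2 to 78.7 in old AP mice, and its differences were -0.05 (adjusted p = 0.903) and -0.01 (adjusted p = 0.989). The latter changed sign under several settings. Of the 12 muscle markers, 2 rose in old vehicle and none in old AP mice, and none fell. Of 10 markers of satellite cells, the stem cells of muscle, and of denervated muscle, 4 rose in old vehicle mice (median log2 fold change of the 10 genes 0.75) and 3 in old AP mice (0.25), and none fell. Over the 41 mice, with group means removed, r with the score of these 10 genes was 0.752 for H19 and 0.805 for Peg3. Their part in the H19 and Peg3 values was not tested. Mest, an enzyme-like protein gene of growing mesoderm, ranged from 2.89 to 8.75 CPM in young, 2.04 to 11 in old vehicle and 2.46 to 22.6 in old AP mice. Its differences were -0.19 (adjusted p = 0.683) and 0.05 (adjusted p = 0.918), and without mouse 10, which had the highest value, the second was -0.22. The medians were 6.26, 4.96 and 5.02 CPM. In all, 10 of 13 old vehicle and 14 of 16 old AP mice were below the young median.

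The second question was what AP changed in old mice. None of the 10 genes was called in old AP against old vehicle mice, where 0.0726% of all genes (14 of 19292) were called in either direction. That count of 14 was unstable, since leaving out 1 mouse gave 0 (without mouse 6, 7, 8, 16, 18, 19 or 23) to 405 (without mouse 9), and it was 0 without both mice 18 and 19. DESeq2 also called none of the 10, with 202 of all genes called, and 1 member, Cdkn1c, had an unadjusted edgeR p under 0.05 (log2 fold change -0.34, SE 0.16, adjusted p = 0.185, 12 of 16 old AP mice below the old vehicle median). Over all genes, 4620 of 19292 had an unadjusted p under 0.05 in this comparison. Dlk1 was at -0.39 (SE 0.25, adjusted p = 0.336), with 13 of 16 mice below that median, Ndn at -0.32 (adjusted p = 0.435), Grb10 at -0.16 (adjusted p = 0.423) and Igf2 at -0.16 (adjusted p = 0.684). Plagl1 was at -0.03 (SE 0.15, adjusted p = 0.908) and Meg3 at 0.09 (SE 0.21, adjusted p = 0.81). Mest, H19 and Peg3 were at 0.23, 0.03 and 0.05. Ndn and Cdkn1c were called against young mice in the old AP group alone, and the direct comparison of the old groups did not pass for either.

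Other imprinted genes were counted beside all genes, of which 4.3% were called higher and 4.76% lower in old vehicle mice and 3.73% and 4.85% in old AP mice. Of 27 listed genes from the same chromosomal domains as the 10, 20 were tested. Dio3 and Tnfrsf23 (0.71, adjusted p = 0.00334), a decoy receptor gene of the Cdkn1c domain, were the 2 called higher in old vehicle mice, and Rian the 1 called lower. In old AP mice none was called higher and 2 were called lower, Rian and Slc22a18 (-0.62, adjusted p = 0.00727), the latter named after its values were seen. Of 35 tested imprinted genes of other domains, 1 was called higher and 4 lower in old vehicle mice, and as many in old AP mice. Rasgrf1, an exchange factor for Ras, was the gene higher in old vehicle mice (0.70, adjusted p = 0.037), a call lost in 11 of 25 fits without 1 mouse. Ano1, a chloride channel gene, fell by 1.31 on the log2 scale (adjusted p = 7.1e-05), Dcn fell by 1.07 (adjusted p = 7e-05), Ppp1r9a fell by 0.76 (adjusted p = 4e-06) and Sfmbt2 fell by 0.55 (adjusted p = 0.00366). Dcn, the matrix proteoglycan decorin, is also 1 of the 9 fibroblast markers. In old AP against old vehicle mice 1 of the 35 was called, Htr2a (0.72, adjusted p = 0.0322), named after its values were seen. No gene of this list was called there in 9 of 29 fits without 1 mouse.

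Genes around the network were counted in the same way, beside the percentages of all genes given above. Of 12 tested genes that decline as postnatal growth slows, 1 was called lower in old vehicle mice, the growth factor Ptn (-1.97, adjusted p = 9.2e-05). This count was 1 to 3 in the 25 fits without 1 mouse and above 1 in 11 of them, those without young mice 33, 37, 39 and 40 or old vehicle mice 2, 6, 7, 8, 14, 15 and 16. In old AP mice Ptn (-1.96, adjusted p = 4.2e-05) and Mdk (-0.69, adjusted p = 0.0165) were lower and Lin28a (0.68, adjusted p = 0.0194) higher, the last 2 named after their values were seen. Of 15 tested genes of IGF2 signalling, which include the receptors Igf1r, Igf2r and Insr and the binding proteins, 1 was called, Igf1, the growth factor related to Igf2. It fell by 0.61 on the log2 scale in old vehicle mice (adjusted p = 0.00035) and by 0.63 in old AP mice (adjusted p = 0.00017). Of 16 genes that set or keep imprints, such as Ctcf, Dnmt1 and Trim28, Tet1, which oxidizes methylated cytosine, was the 1 called in old vehicle mice (-0.64, adjusted p = 0.0003), and none was called in old AP mice, where Tet1 was at -0.47 (adjusted p = 0.0039). The IGF2 signalling count in old vehicle mice became 2 without mouse 2, 20, 32 or 40, and that of the imprint genes became 2 without mouse 6, 14, 34 or 36. In old AP mice, 1 imprint gene was called in 6 of 28 such fits, those without mouse 5, 12, 25, 37, 39 or 40. None of the tested genes of these 3 lists was called in old AP against old vehicle mice, though 1 gene of the growth decline list was called without mouse 2, 9, 10, 14 or 27.

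Pairs of the 10 genes were compared across the mice of each group. Of 45 pairs in each of 3 groups, 13 relations passed permutation tests of both r and rho after Benjamini-Hochberg adjustment, all of them positive. The median r was 0.486 in young, 0.177 in old vehicle and 0.411 in old AP mice. No pair passed in all 3 groups, 2 pairs passed in 2 groups, 9 in 1 group and 34 in none. Meg3 and Peg3 were related in young (r = 0.936, rho = 0.965, permutation adjusted p = 0.0027 and 0.00135, n = 12, r = 0.914 without the 2 farthest mice) and old vehicle mice (r = 0.848, rho = 0.918, adjusted p = 0.00472 and 0.0027, n = 13, r = 0.779 without them), with r = 0.217 in old AP mice. Old AP mice 18 and 19 had Meg3 of 33.75 and 22.35 CPM, above the group median of 20.8. Their Peg3, 27.52 and 17.22 CPM, was below its group median of 41.8. Igf2 and Cdkn1c were related in young (r = 0.837, rho = 0.881, permutation adjusted p = 0.0135 and 0.00844, n = 12, r = 0.94 without the 2 farthest mice) and old AP mice (r = 0.792, rho = 0.726, adjusted p = 0.00472 and 0.0286, n = 16, r = 0.565 without them), with r = 0.357 in old vehicle mice. Differences in r between groups were not tested. Dlk1 and Meg3 had positive r within each group, at 0.345, 0.607 and 0.523, and none of these passed. Their fitted differences from young mice had opposite signs with no score in the model, but those of Meg3 did not pass the test.

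**Figure D5:**
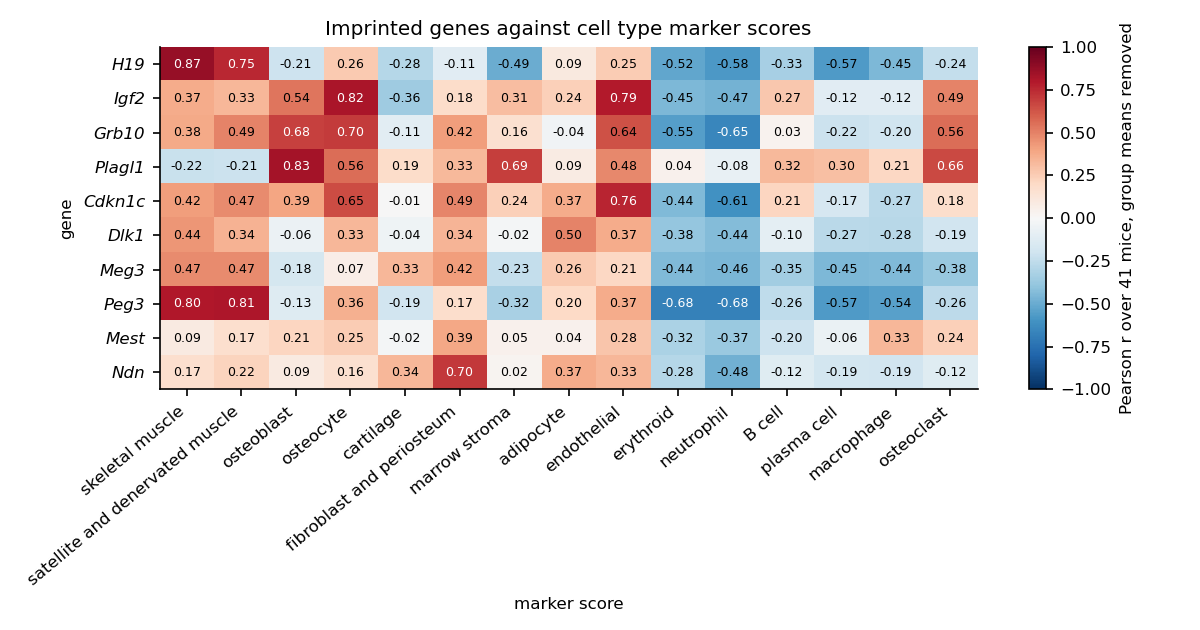
Pearson r over 41 mice, after subtracting group means, between each imprinted gene (rows) and each of 15 cell type marker scores (columns). Red is positive and blue is negative. H19 is reddest for skeletal muscle (0.87), Peg3 for satellite cells and denervated muscle (0.81, with 0.80 for skeletal muscle), Plagl1 for osteoblasts (0.83), Igf2 for osteocytes (0.82, but 0.52 without mice 18 and 19, when the endothelial score was highest at 0.61) and Ndn for fibroblasts (0.70).

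The 10 genes were also compared with cell type marker scores. Of 450 relations of the 10 genes with 15 marker scores in the 3 groups, 40 passed permutation tests of both r and rho, and 27 of these were positive. Grb10 had 11 of them, Peg3 8, H19 6, Plagl1 5, Igf2, Meg3 and Cdkn1c 3 each, Ndn 1, and Dlk1 and Mest 0. Igf2 followed the osteocyte score in old AP mice (r = 0.943, rho = 0.906, n = 16, permutation p = 1e-05, adjusted p = 0.0009 for r and 0.0045 for rho), and r was 0.752 without mice 18 and 19, the 2 farthest. Grb10 was opposite to the neutrophil score in young mice (r = -0.91, rho = -0.888, n = 12, permutation p = 2e-05, adjusted p = 0.00129 for r and 0.0121 for rho, r = -0.83 without the 2 farthest mice). Over all 41 mice with group means removed, Cdkn1c had r = 0.758 with the endothelial score. Mice 18 and 19 had both the lowest endothelial scores and the lowest Cdkn1c of all mice, and r over the other 39 mice was 0.65. Over those 39 mice its highest r was with the fibroblast and periosteum score, at 0.714, against 0.486 over all 41.

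The genes most like each member over the same 41 mice, by r after subtracting group means, were as follows. For Igf2 they were Efnb2 (0.882), an ephrin ligand of arteries, Tmem204 (0.874) and Gm20748 (0.871). Without mice 18 and 19, which had the lowest Igf2, these 3 values were 0.763, 0.792 and 0.711, and Gm20748 was then at rank 20. For Dlk1 they were Gpc3 (0.705), a glypican that restrains growth, Ntrk2 (0.694) and Apod (0.671). Meg3 was closest to Rian (0.899), Mir1906-1 (0.892) and Mirg (0.822), its neighbours in the domain, and the Mir1906-1 row lies inside Meg3. Peg3 was closest to Tbx1 (0.887), Kcnc4 (0.886) and Cpeb1 (0.881), and Mest to Dad1 (0.723), Akr1b8 (0.69) and Cbr2 (0.687). Plagl1 was closest to Pard6g (0.872) and the protocadherin genes Pcdha8 (0.863) and PCDHA9 (0.862), which share exons, so that their reads cannot be fully told apart. Grb10 was closest to Copz2 (0.909), Fkbp9 (0.881) and Ptk2 (0.88), and Cdkn1c to Ptrf (0.868), Ehd2 (0.847) and Sox17 (0.844), a factor of arterial endothelium. Without mice 18 and 19, Copz2, Fkbp9 and Ptk2 were at 0.858, 0.859 and 0.809 for Grb10, at ranks 5, 4 and 15, so that none of them was among its 3 closest genes. Without these mice Ptrf, Ehd2 and Sox17 were at 0.851, 0.805 and 0.824 for Cdkn1c and remained its 3 closest. Ndn was closest to Cd248 (0.863), a marker of stromal cells, Matn2 (0.849) and Entpd2 (0.831). Some other genes were also no longer among the 3 closest without mice 18 and 19. Efnb2 was then at rank 4 for Igf2, Apod at rank 9 for Dlk1 and Mirg at rank 5 for Meg3. Cbr2 was at rank 10 for Mest, PCDHA9 at rank 4 for Plagl1 and Smtnl1 at rank 5 for H19.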

How the data were processed

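Tibia diaphysis RNA of 41 mice was sequenced, and the authors deposited unnormalized read counts of each gene in each mouse. Per the labels the genome build was GRCm38, and the submitters' processing notes name TopHat2 (2.0.6) and HTSeq. The strand setting was not given in the sources used here, so overlapping rows (Mir675 and Mir1906-1 inside H19 and Meg3, Copg2 beside Mest) are uncertain. The table lists 37 mitochondrial genes, all at 0. All 41 columns were used and no 2 were identical.

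From the counts, edgeR 4.0.16 (R 4.3.3) gave TMM normalization, filterByExpr and the quasi-likelihood test in 1 model of the 3 groups. CPM and RPKM used TMM library sizes and the table's gene lengths. Log2 CPM for ratios, scores and correlations used a prior count of 2. DESeq2 1.42.0 was an alternative. The members and gene lists were chosen with earlier results of these data known. Named genes are all members, genes of the gene lists other than cell type markers called in old vehicle against young (at most 8 per list), the 3 genes most like each member, and Cdkn2a. A few others (Bglap, Slc22a18, Htr2a, Mdk, Lin28a) were chosen after their values were seen. On data simulated for old vehicle against young (19139 genes), 78 of 100 genes changed by 1 on the log2 scale and 98 of 100 changed by 2 were recovered, and 7 of 18940 unchanged genes were called. In the simulation each gene varied independently of the others, so the mice did not differ in tissue content. These rates may therefore not hold for the real data. The labels give no batch.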

Additional observations from a re-analysis of the deposited data

How the results depend on the processing

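Of 1587 refitted log2 fold changes of the named genes (41 gene comparisons), 1469 kept their direction and side of the threshold, 48 lost a call, 5 gained one and 65 changed sign. The sign changes were all in differences that had not passed the test. In old vehicle against young mice they were H19 at -0.056 with the muscle, -0.18 with the fibroblast, -0.27 with the osteoblast and -0.54 with the marrow stroma score. With the fibroblast score they were Meg3 at 0.0035, Peg3 at 0.17, Mest at 0.19, Cdkn1c at 0.079 and Ndn at 0.091, and with the osteoblast score Grb10 at 0.024. In old AP against young mice H19 was at -0.20, -0.39 and -0.61 with the fibroblast, osteoblast and marrow stroma scores, and Meg3 at 0.12 with the fibroblast score. Peg3 was at 0.0029 with DESeq2 size factors, 0.0030 with DESeq2, 0.066 with the muscle score, 0.26 with the fibroblast score, 0.090 without mice 18 and 19 and 0.0899 without mice 16, 18 and 19. In old AP against old vehicle mice H19 was at -0.024, -0.12 and -0.071 with the fibroblast, osteoblast and marrow stroma scores. Plagl1 there was at 0.0049, 0.15, 0.034 and 0.011 with the fibroblast, osteoblast, osteocyte and marrow stroma scores and at 0.023 without mice 18 and 19. The marker scores of osteocytes and marrow stroma and the sets without these mice were chosen after seeing the data.

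Members called in old AP against young mice dropped from 4 to 2 with the fibroblast score and to 2 with the osteoblast score. The other settings gave 3 to 5, and old vehicle against young gave 2 to 3. The ratio of Dlk1 to Meg3 in old AP against old vehicle mice was -0.40 without mice 18 and 19 and -0.42 without mice 16, 18 and 19, past the threshold in neither. A cause was not tested for any of these.

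Leaving out 1 mouse changed the sign of some small differences, with these ranges. In old AP against old vehicle mice H19 was at -0.21 to 0.13, Mest at -0.037 to 0.37, Peg3 at -0.031 to 0.15, Plagl1 at -0.085 to 0.041, and the Igf2 to H19 ratio at -0.12 to 0.24. The Dlk1 to Meg3 ratio kept its sign there, at -0.61 to -0.44. In old AP against young mice H19 was at -0.10 to 0.34, Mest at -0.22 to 0.11, Peg3 at -0.0795 to 0.072 and the Igf2 to H19 ratio at -0.28 to 0.046. In old vehicle against young mice Peg3 was at -0.16 to 0.026. Some other differences kept their sign but moved, such as H19 in old vehicle against young mice, at 0.0065 to 0.31. In old AP against old vehicle mice Ndn was at -0.47 to -0.14 and Meg3 at 0.0093 to 0.23. Without 1 mouse, 2 to 3 members were called in old vehicle and 4 in old AP against young mice. Over all genes, 14 were called in old AP against old vehicle mice, 0 without mouse 7, 405 without mouse 9, 202 by DESeq2 and 117 with the marrow stroma score, with 0 members among them each time. The counts against young mice (1748 and 1655) were 3736 and 3437 with no fold threshold. With the marrow stroma score old vehicle mice had 735, and old AP mice had 783 and 805 with the fibroblast and osteoblast scores. At 5 to 63 reads per mouse, Dlk1 levels carry the most counting error of the 10 genes. No paired analysis was possible because the groups share no mouse numbers.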
